A study of Mus musculus with 98 samples.

Results

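The genes described here are 9 markers of fat cells, read in skeletal muscle libraries of mice with transplanted livers. They are Adipoq, Lep, Retn, Cfd, Plin1, Cidec and Fabp4, which white fat cells make in large amounts, and Ucp1 and Cidea, which mark brown fat cells. The members were picked by gene symbol. All 9 of 9 were found among the 20415 mouse genes of the count table, and all 9 passed the filter on low counts that left 14197 genes for testing. They were proposed with the difference in fat cell RNA between the arms already known from these libraries. Their levels by arm are therefore given as a description. Calls of the fit over all genes are counted for them beside the share over all genes, and nothing is read from those counts.

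Every mouse was a male FRGN animal of 10 weeks, crossed to the non-obese diabetic strain. It was homozygous for deletions of Fah and Rag2 and also carried a deletion of Il2rg. Loss of Fah kills the animal's own hepatocytes unless nitisinone is given, and loss of Rag2 and Il2rg removes the lymphocytes that would reject a graft. Hepatocytes were injected into the spleen: human cells in the liver humanized arm (Hu), and mouse cells in the control arm, labelled liver muranized (Mu). Human cells had repopulated more than 70% of the Hu livers, per the labels. Both arms received cycles of nitisinone at 8 mg/l with the antibiotics sulfamethoxazole and trimethoprim and 3% dextrose in the water, and a high-energy diet, so neither arm is an untreated mouse. Muscle was taken at zeitgeber time (ZT, hours after lights on) 2, 6, 10, 14, 18 and 22. The 15 Hu libraries comprised 3 at ZT 2, 6 and 18 and 2 at ZT 10, 14 and 22, and the 12 Mu libraries comprised 2 at each time. The labels name neither the muscle that was taken nor whether each library came from a separate animal, so every p-value below measures the spread between libraries.

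Muscle libraries held 43.1 to 92.1 M counts in Hu and 50.9 to 79.6 M in Mu (M, 1000000). Levels are given in CPM, a gene's counts scaled to a library total of 1000000. The summed level of 6 muscle fibre markers was 100176 to 140435 CPM in Hu and 92446 to 125866 CPM in Mu, so muscle fibre RNA was abundant in every library, as the tissue label says. A single Mu library, ZT 2 replicate 2, had the highest level of every one of the 9 fat cell genes in its arm. Counts of genes called are given with and without it. A single Hu library, ZT 6 replicate 1, held 10873 CPM of summed haemoglobin and erythroid transcripts against a Hu median of 179.8 CPM.

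White fat cells store triglyceride in 1 large lipid droplet and release hormones. Adiponectin is made by fat cells and acts on liver and muscle, and leptin reports the size of the fat stores to the arcuate nucleus of the hypothalamus. Brown fat cells burn fatty acids to make heat through uncoupling protein 1. Skeletal muscle contains some fat cells between its fibres and lies beside fat depots. In bulk RNA, fewer fat cells and less RNA per fat cell cannot be told apart.

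The sequences just upstream of 3 of the genes are shown because the results below read Lep and Ucp1 against Adipoq, and their median ratios to it lay in opposite directions between the arms. They are RefSeq promoter windows on build GRCm38.p6, written 5′ to 3′ on the gene's own strand. Each ends at the base before the RefSeq start, except that of Lep, which ends 1 base earlier because the first exon begins there in the GENCODE annotation. Capitals mark the only matches, on either strand, to TTGCNNAA (the C/EBP type motif), CCAAT (the CCAAT box) and AGGTCA (a hexamer bound by nuclear receptors).
Adipoq, chr16:23146436-23146535, plus strand: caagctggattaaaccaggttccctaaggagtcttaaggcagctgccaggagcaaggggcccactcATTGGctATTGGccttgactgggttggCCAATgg
Lep, chr6:29060121-29060219, plus strand: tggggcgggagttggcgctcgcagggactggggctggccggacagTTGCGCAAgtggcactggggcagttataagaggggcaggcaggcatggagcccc
Ucp1, chr8:83290248-83290347, plus strand: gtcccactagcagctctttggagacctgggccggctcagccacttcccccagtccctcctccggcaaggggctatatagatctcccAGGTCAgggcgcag

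Within 250 bases upstream, Adipoq held 3 matches to CCAAT, a motif found in 33.8% of the 32851 promoter windows of that length. Lep held 1 match to TTGCNNAA, beginning 55 bases before the start, and this motif stood in 9.56% of all windows. The Plin1 window and 1 of the 2 Cidec windows held it too, and Ucp1 held AGGTCA, present in 14.02% of windows. No window of a member held the E-box CACGTG, found in 6.02% of all windows. None held the TATA box letters TATAAA, found in 12.4%, or a direct repeat of AGGTCA spaced by 1 base, found in 0.0335%. Windows were read for 7 of the 9 members, and Fabp4 and Cidea were not used here. A motif match is a description of letters, and no match says only that these letters were not in this window.

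Adipoq (chromosome 16, 23146536 to 23158028, plus strand, 4 exons in GENCODE M21 on GRCm38) encodes adiponectin and is the reference against which the other genes are read. Its level ran from 11.1 CPM (Hu ZT 18 replicate 2) through a median of 54.7 to 208.2 CPM (Hu ZT 14 replicate 2) in Hu. In Mu it ran from 1.18 CPM (ZT 14 replicate 2) through a median of 9.36 to 132.6 CPM (ZT 2 replicate 2). The arms overlapped: 4 of the 15 Hu values exceeded the highest Mu value, and 8 of the 12 Mu libraries lay below every Hu library. The fitted difference of the 24 h mean, Hu minus Mu, was 2.28 ± 0.55 on the log2 scale (SE, edgeR), and 2.63 ± 0.56 without Mu ZT 2 replicate 2.

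Retn (chromosome 8, 3655770 to 3660110) encodes resistin, a hormone of mouse fat cells. It spanned 4.43 to 92.3 CPM in Hu, with a median of 33.5, and 0.258 to 53.0 CPM in Mu, with a median of 3.31. Cfd (chromosome 10, 79890853 to 79892655) encodes adipsin, the factor D protease of the alternative complement pathway. It spanned 51.4 to 1432 CPM in Hu, with a median of 301.3, and 3.71 to 246.0 CPM in Mu, with a median of 29.2. Of the 9 genes Cfd had the most Hu libraries above every Mu library, 8 of 15, and 9 of its 12 Mu values lay below every Hu library. The fitted log2 differences were 2.57 ± 0.54 for Retn and 3.04 ± 0.53 for Cfd.

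Plin1 (chromosome 7, 79720218 to 79732903) encodes perilipin 1, which coats the lipid droplet and controls access of lipases, and Cidec (chromosome 6, 113424634 to 113435760) encodes a protein that fuses small droplets into a large one. Plin1 ranged from 11.3 to 277.6 CPM in Hu (median 73.4) and from 0.758 to 304.9 CPM in Mu (median 11.2). Cidec ranged from 14.6 to 421.2 CPM in Hu (median 67.7) and from 1.11 to 151.5 CPM in Mu (median 9.33). For both genes each of the 15 Hu values exceeded the Mu median. The fitted log2 differences were 2.12 ± 0.61 for Plin1 and 2.53 ± 0.59 for Cidec.

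Fabp4 (chromosome 3, 10204088 to 10208576) encodes the fatty acid binding protein of fat cells and is also made by capillary endothelium. It ranged from 133.1 to 1656 CPM in Hu, with a median of 456.9, and from 119.6 to 1659 CPM in Mu, with a median of 229.3. Its lowest Mu value was thus close to its lowest Hu value: 11 of 15 Hu values exceeded the Mu median, and none exceeded the highest Mu value. The fitted log2 difference was 0.85 ± 0.37. The 6 endothelial markers measured beside it summed to 279.5 to 492.9 CPM in Hu and 301.6 to 567.8 CPM in Mu. Of these, Vwf was higher and Cdh5, Kdr and Tie1 were lower in Hu (adjusted p below 0.05, edgeR). Among all genes 13.5% were higher and 13.3% lower. Without Mu ZT 2 replicate 2 none of the 6 was higher and 3 were lower, where 16.4% and 14.6% of all genes were. The part of endothelium in the Fabp4 values was not tested.

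Ucp1 (chromosome 8, 83290352 to 83298452) encodes the uncoupling protein of brown fat mitochondria, and Cidea (chromosome 18, 67343604 to 67367785) a lipid droplet protein that is abundant in brown fat. Ucp1 had the widest ranges. It spanned 0.386 CPM (30 counts, Hu ZT 18 replicate 2) to 463.2 CPM (31818 counts, Hu ZT 18 replicate 1) among libraries of a single time of day, with a Hu median of 8.03. In Mu it spanned 0.0378 CPM (3 counts, ZT 10 replicate 2) to 144.2 CPM (8312 counts, ZT 2 replicate 2), with a median of 0.756. The fitted log2 difference was 4.22 ± 1.20, and leaving out 1 library at a time moved it between 3.19 (without Hu ZT 18 replicate 1) and 5.37 (without Mu ZT 2 replicate 2). Cidea spanned 0.565 to 275.4 CPM in Hu (median 13.1) and 0.794 to 242.2 CPM in Mu (median 3.47), and its fitted log2 difference was 2.40 ± 0.88.

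**Figure D1:**
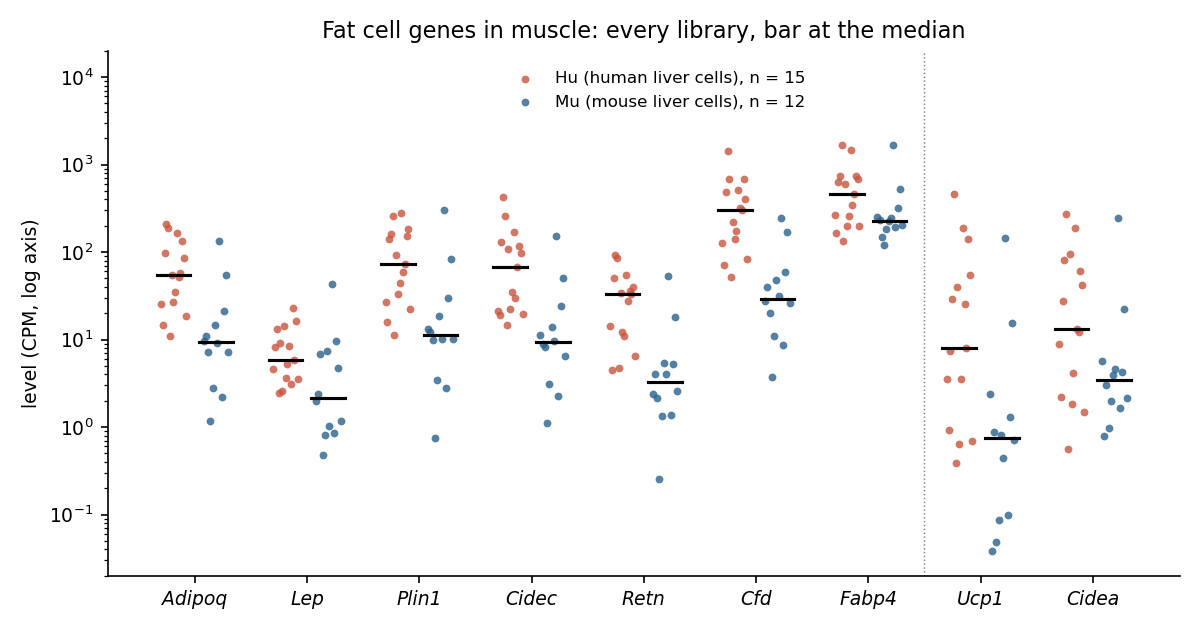
Level of the 9 fat cell genes in each muscle library, in CPM on a log axis. Red points are the 15 Hu libraries, blue points the 12 Mu libraries, bars are medians, and the dotted line separates white (left) from brown fat genes (right). Hu medians lie above Mu medians for all 9 genes, by 1.99-fold for Fabp4 and 10.6-fold for Ucp1, and a single Mu library stands high for every gene.

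Lep (chromosome 6, 29060220 to 29073877, plus strand, 4 exons) encodes leptin. It ran from 2.46 CPM (Hu ZT 14 replicate 2) through a median of 5.84 to 22.6 CPM (Hu ZT 22 replicate 2) in Hu, and from 0.484 CPM (Mu ZT 14 replicate 2) through a median of 2.17 to 42.6 CPM (Mu ZT 2 replicate 2) in Mu. Each of the 15 Hu values exceeded the Mu median, and 7 of 12 Mu libraries lay below every Hu library. The highest library of all 27 was nevertheless a Mu library. The ratio of the medians was 2.69, while the fitted log2 difference, which follows the means, was 0.59 ± 0.54. Without Mu ZT 2 replicate 2, whose Lep level was 42.6 CPM against at most 9.73 CPM in the other 11 Mu libraries, it was 1.28 ± 0.49. Leptin thus had the smallest fitted difference of the 9 genes over all libraries, and the second smallest, after Fabp4 with 1.15 ± 0.35, without that library.

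Leptin's values at each time show how far the libraries of 1 group lay apart. At ZT 2 they were 3.59, 5.27 and 8.43 CPM in Hu and 1.02 and 42.6 CPM in Mu. At ZT 6 they were 3.57, 5.84 and 16.2 CPM in Hu and 1.17 and 4.70 CPM in Mu. At ZT 10 they were 4.62 and 8.13 CPM in Hu and 1.99 and 2.36 CPM in Mu, the single time at which every Hu library lay above every Mu library for this gene. At ZT 14 they were 2.46 and 13.1 CPM in Hu and 0.484 and 6.77 CPM in Mu. At ZT 18 they were 2.57, 9.03 and 14.2 CPM in Hu and 0.801 and 7.42 CPM in Mu. At ZT 22, where 1 Hu library held the arm's highest value, they were 3.09 and 22.6 CPM in Hu and 0.865 and 9.73 CPM in Mu. At every time but ZT 10 the arms overlapped.

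Over the 9 genes, edgeR called 7 higher in Hu at an adjusted p under 0.05 and none lower, where 13.5% of all 14197 genes were called higher and 13.3% lower. The members were chosen with this contrast known, so the count is no evidence about them. Lep and Fabp4 were the genes not called. The median of the 9 fitted differences was 2.40 against 0.03 for all genes tested. Without Mu ZT 2 replicate 2, 8 of 9 were called higher, where 16.4% of all genes were, and 14.6% were lower. Cidea lost its call in 16 of the 27 fits that left out 1 library, and its difference over all 27 ranged from 1.94 to 3.42.

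**Figure D2:**
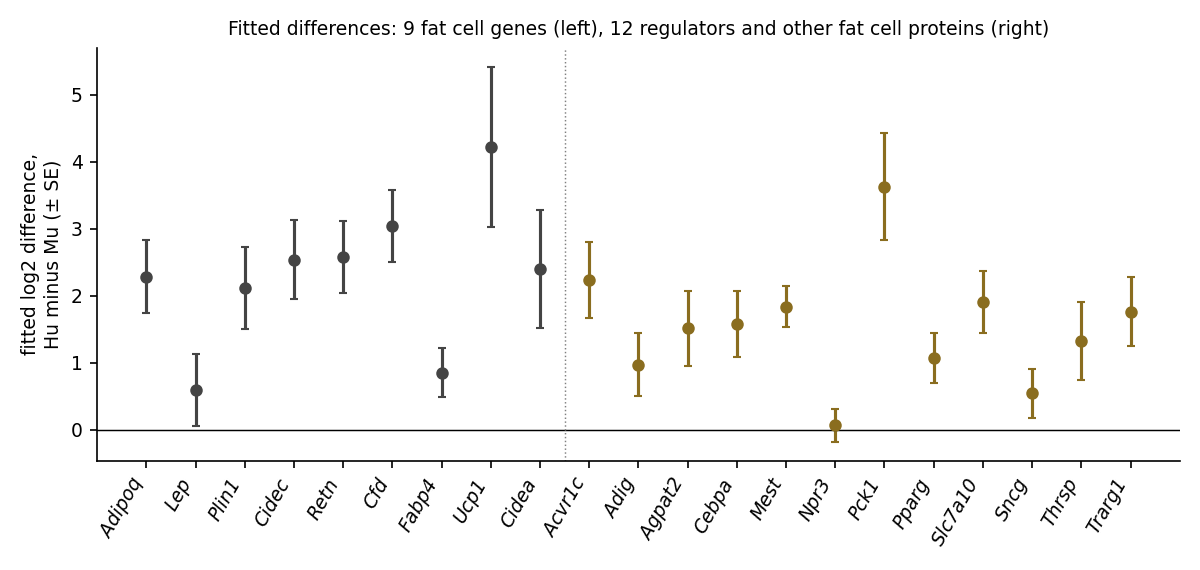
Fitted log2 difference between the arms (Hu minus Mu, 24 h mean, points) with its SE (bars) for the 9 fat cell genes on the left and 12 regulators and other fat cell proteins on the right. Lep (0.59) and Fabp4 (0.85) lie lowest among the 9, and Ucp1 (4.22) lies highest with the widest SE.

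Markers of other cells were read in the same fit, in which 13.5% of all genes were higher and 13.3% lower. All 5 macrophage markers were higher in Hu (median log2 difference 0.82), their summed level being 109.1 to 518.0 CPM in Hu and 51.2 to 198.5 CPM in Mu, and none was at or under 3 counts throughout. Of 6 markers of fibro-adipogenic progenitors, from which fat cells of muscle arise, 1 was lower (Cd34) and 5 did not pass, with sums of 509.1 to 1256 CPM in Hu and 527.4 to 926.4 CPM in Mu. Of 6 slow fibre markers, 2 were lower (Myl2 and Tnnt1) and 4 did not pass, with sums of 74.2 to 804.5 CPM in Hu and 111.2 to 2138 CPM in Mu. Of the 6 muscle fibre markers, Ckm and Myh4 were higher and Mb was lower, and without Mu ZT 2 replicate 2 the counts were 1 higher and 2 lower. Of 4 tendon markers 2 were lower (Scx and Tnmd), and of 4 blood genes tested none passed. The counts for macrophages, progenitors, slow fibres, tendon and blood were the same without that library. In that fit 16.4% of all genes were higher and 14.6% lower. Of the 4 keratinocyte markers 1 was tested and did not pass, and Krt14 and Krt1 were at or under 3 counts in every library. The part of macrophages, slow fibres or tendon in the fat cell values was not tested.

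Levels of different genes can be set side by side only per length of transcript. Per kilobase of merged exons, the Hu median levels ran in the order Cfd (326.8 CPM per kb), Fabp4 (101.8), Adipoq (39.6), Cidec (36.5), Retn (21.2), Plin1 (15.8), Cidea (11.8), Ucp1 (4.91) and Lep (1.74). The Mu medians per kilobase were 51.1 for Fabp4, 31.7 for Cfd, 6.78 for Adipoq, 5.03 for Cidec, 3.11 for Cidea, 2.41 for Plin1, 2.10 for Retn, 0.648 for Lep and 0.462 for Ucp1. Neighbours in these orders overlapped over the libraries of an arm. The Fabp4 length of 4489 bases counts a transcript model that keeps its introns, so its value per kilobase is too low by an amount not measured here. Leptin was among the lowest of the 9 in either arm.

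All other members but Cidea were also read per 100 Adipoq counts of the same library. Plin1 stood at a median of 123.9 counts per 100 Adipoq counts in Hu and 132.4 in Mu, and Cidec at 115.8 and 103.8. Retn stood at 46.0 and 36.6. For these droplet and hormone genes the arms' medians lay close together and the ranges overlapped. Cfd stood higher in Hu, at 494.5 (312.6 to 687.8) against 317.9 (185.5 to 394.7), and 14 of 15 Hu values exceeded the Mu median. Fabp4 stood lower, at 813.5 (359.4 to 1203) against 2376 (959.2 to 10158), with all 15 Hu libraries below the Mu median. Fabp4 itself was at 119.6 CPM or more in every library, so its ratio depends strongly on Adipoq. Its highest ratio was in Mu ZT 14 replicate 2, which had the lowest Adipoq (73 counts).

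Leptin stood lower relative to Adipoq in Hu. The Hu values ran from 1.18 (ZT 14 replicate 2) through a median of 14.97 to 56.2 Lep counts per 100 Adipoq counts, and the Mu values from 8.63 through a median of 30.5 to 95.1. In Hu the lowest ratio was in the library highest in Adipoq (208.2 CPM), and the highest in ZT 10 replicate 2 (14.5 CPM of Adipoq). The Mu library highest in Adipoq, ZT 2 replicate 2, had a ratio of 32.2. Of the Hu libraries, 13 of 15 lay below the Mu median and 5 lay below every Mu library. Ucp1 stood higher at the median, with 13.9 (2.38 to 248.3) per 100 Adipoq counts in Hu and 5.87 (0.346 to 108.8) in Mu, and the ranges overlapped widely. For the related pair of droplet proteins, Cidea stood at a median of 21.02 per 100 Cidec counts in Hu and 45.8 in Mu, so these ratios of the brown fat genes differed in direction at the median. These ratios come from the same contrast as the choice of the genes and carry no test.

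**Figure D3:**
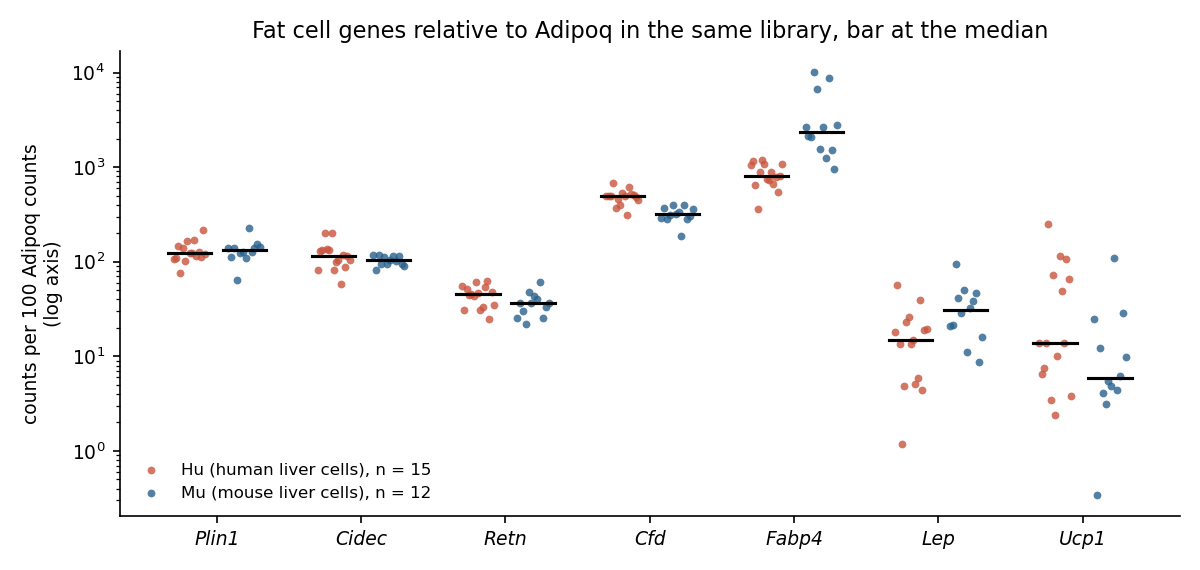
Counts of 7 fat cell genes per 100 Adipoq counts of the same muscle library, on a log axis. Red points are the 15 Hu libraries, blue points the 12 Mu libraries and bars the medians. Plin1, Cidec and Retn lie at like ratios in both arms, Cfd lies higher in Hu, and Fabp4 and Lep lie lower in Hu.

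Within an arm, most of the fat cell genes were high in the libraries where Adipoq was high. Over the 15 Hu libraries, Pearson's r of log2 CPM with Adipoq was 0.97 for Plin1, 0.95 for Cidec, 0.96 for Retn, 0.98 for Cfd, 0.94 for Fabp4, 0.92 for Cidea and 0.89 for Ucp1. Spearman's rho for these ran from 0.84 to 0.99, and the highest adjusted p of the 7 genes was 5.33e-05 for r and 0.000333 for rho (permutation test, Ucp1). Leptin was the gene that did not pass, with r = 0.23 and rho = 0.24 (adjusted p = 0.405 and 0.383, permutation test with 100000 resamples, 2-sided, adjusted over 16 relations). Without the 2 libraries farthest from the Adipoq median, its r was 0.15.

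In the same Hu libraries the muscle fibre marker Ckm, the creatine kinase of muscle, was low where the fat cell genes were high. Pearson's r with Ckm was -0.59 (Ucp1) to -0.84 (Cidec) for the 8 members other than Lep, with Adipoq at -0.74, and rho was -0.65 to -0.84 (adjusted p of at most 0.0463 and 0.0224, permutation test, adjusted over 18 relations). Without the 2 libraries farthest from the Ckm median, r of these 8 was -0.47 to -0.74. For Lep r was -0.14 and rho -0.27 (adjusted p = 0.741 and 0.586, permutation test), and r was -0.46 without those 2 libraries. In Mu r was -0.11 to -0.31 and rho -0.13 to -0.43 for the 9 members, and none passed (lowest adjusted p = 0.696 and 0.325, permutation test), and without the 2 farthest libraries r was -0.26 to -0.60. The part of Ckm in the relations with Adipoq was not tested. Genes other than the members were not tested against Ckm, so these relations are not shown to be particular to fat cell genes. Ckm is among the 6 muscle fibre markers, and the others were not tested against the members, so these relations hold for Ckm alone.

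Over the 12 Mu libraries leptin passed, with r = 0.86 and rho = 0.85 (adjusted p = 0.000222 and 0.00105, permutation test). Without the 2 libraries farthest from the Adipoq median, ZT 2 replicate 2 and ZT 14 replicate 2, r was 0.69. The other 7 genes had r from 0.84 (Cidea) to 0.996 (Cidec) and rho from 0.70 to 0.98 in Mu, with adjusted p of at most 0.000469 for r and 0.0159 for rho (permutation test). Without those 2 libraries r was 0.70 (Cidea) to 0.99. Of the 16 relations, 15 passed the adjusted threshold, the smallest p that these resamples can give being 1e-05. Other genes were not put to this test, so the count cannot be set against a share of all genes. Whether the leptin correlation differs between the arms was not tested.

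The Hu library that set leptin apart most was ZT 14 replicate 2. It had the highest Adipoq, Cidec, Retn and Cfd of all 27 libraries, at 208.2, 421.2, 92.3 and 1432 CPM, and the lowest Lep of the Hu arm, at 2.46 CPM (226 counts). Without it, r of Lep with Adipoq over the other 14 Hu libraries was 0.48 (adjusted p = 0.0838, permutation test). Without Hu ZT 18 replicate 2, the library lowest in Adipoq, it was 0.09. The range over all libraries left out in turn was 0.09 to 0.48. Over all genes, the 2 Hu libraries of ZT 14 also lay farther apart than any other libraries of a muscle group. Their mean chi-square per gene, which grows with depth, was 593.0, and the next highest was 436.6 (Hu ZT 6 replicates 1 and 2). Which of the 2 libraries of ZT 14 departs, and the part of this in the leptin values, was not tested.

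**Figure D4:**
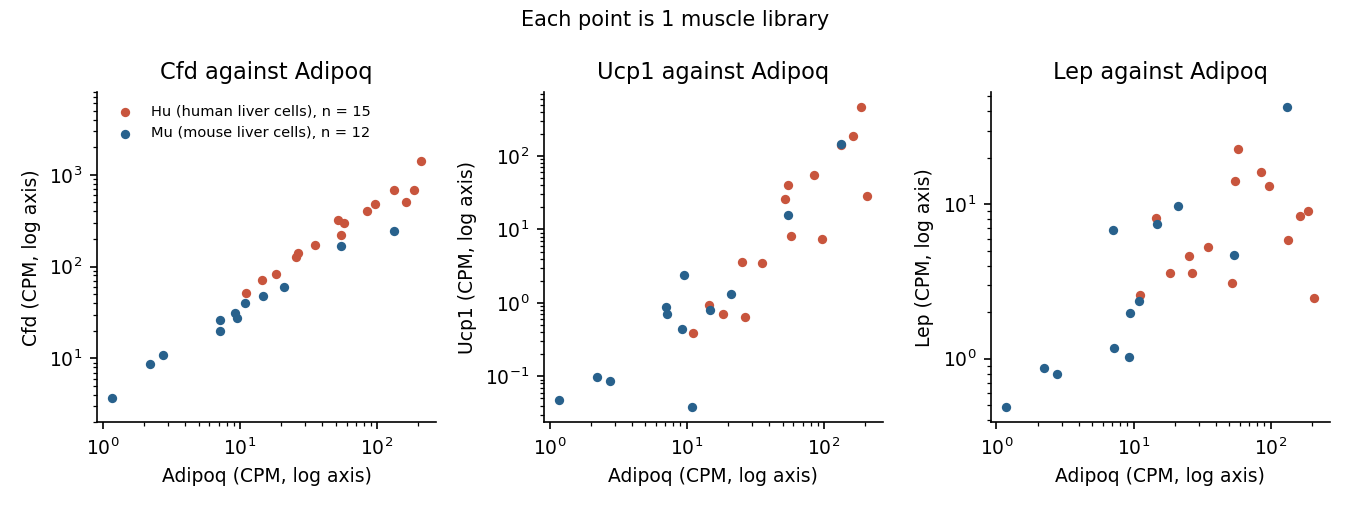
Levels of Cfd, Ucp1 and Lep against Adipoq, in CPM on log axes, where each point is 1 muscle library (red Hu, n = 15, blue Mu, n = 12). Cfd follows Adipoq closely in both arms, Ucp1 follows it with wide scatter, and Lep has r = 0.86 in Mu and r = 0.23 in Hu.

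Among all 14195 gene symbols tested, the 10 genes most like Adipoq over the 27 libraries, after the mean of each arm was subtracted, were Cfd, Plin1, Cidec, Retn, Pck1, Arxes2, Acvr1c, Acp5, Prkar2b and Slc1a3, with Pearson's r from 0.98 to 0.95. Fabp4, Ucp1 and Cidea came 60th, 74th and 117th, and Lep came 659th with r = 0.65. The 5 genes most like Lep were Fads3 (r = 0.81), Ptger3 (0.80), Sucnr1 (0.78), Ephb2 (0.77) and Scd1 (0.77), and the first member in that order was Plin1, at rank 28 with r = 0.72. The 5 genes most like Ucp1 were Cidea (r = 0.95), Prkar2b (0.94), Slc36a2 (0.94), Clstn3 (0.93) and Tkt (0.93). Scd1 makes monounsaturated fatty acids, and Ptger3 and Sucnr1 are receptors for prostaglandin E2 and succinate. The points of these correlations share libraries and depth, and they are given with no p.

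By time of day, the 9 genes overlapped between arms at ZT 2 and ZT 6, where none of the 9 had every Hu library above every Mu library. Among all genes tested, 6.61% were so separated at ZT 2 and 16.4% at ZT 6. The count was 6 of 9 at ZT 10, where 22.8% of all genes were separated, and 8 of 9 at ZT 14, where 48.4% were. For ZT 18 it was 2 of 9, where 19.2% of all genes were separated, and for ZT 22 it was 8 of 9, where 21.5% were. At ZT 14 the Adipoq values were 97.5 and 208.2 CPM in Hu and 1.18 and 7.12 CPM in Mu, the time at which the arms' medians of that gene had the highest ratio. At ZT 2 they were 26.7, 35.2 and 163.8 CPM in Hu and 9.21 and 132.6 CPM in Mu. Separation by time comes from the contrast that chose the genes, and the groups hold 2 or 3 libraries.

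No member passed the test for a 24 h rhythm in Mu at an adjusted p under 0.05 (edgeR, adjusted p from 0.0824 for Plin1 to 0.338 for Lep), where 5.31% of all genes did. At an unadjusted p under 0.05, 8 of 9 passed, all but Lep, where 22.7% of all genes did. DESeq2 called 4 of 9 at an adjusted p under 0.05 (Plin1, Retn, Ucp1 and Cidea), where it called 11% of all genes. The fitted peaks of the 8 genes lay between ZT 2.50 and ZT 3.20, which is next to the time of the single high library. Without Mu ZT 2 replicate 2, none of the 9 passed at an unadjusted p under 0.05 in edgeR, where 18.1% of all genes did, and DESeq2 called none, where it called 7.55% of all genes.

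In Hu no member passed the rhythm test either (adjusted p from 0.523 for Cidec to 0.968 for Plin1, edgeR), where 7.78% of all genes did. None passed at an unadjusted p under 0.05, where 26.6% of all genes did, and DESeq2 called none of the 9, where it called 12.3% of all genes. The rhythm differed between arms for none of the 9 at an adjusted p under 0.05, by edgeR (lowest 0.258, Retn) or DESeq2, where they called 0.0704% and 1.23% of all genes. At an unadjusted p under 0.05 it differed for 6 of 9, where 13.8% of all genes passed. Without Mu ZT 2 replicate 2 that count was 0 of 9, where 11.7% of all genes passed. A daily rhythm of these genes in muscle was therefore not detectable once that library was left out. The fit without it kept a single library at Mu ZT 2 and 2 or 3 in each other group, which limits what it can detect.

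**Figure D5:**
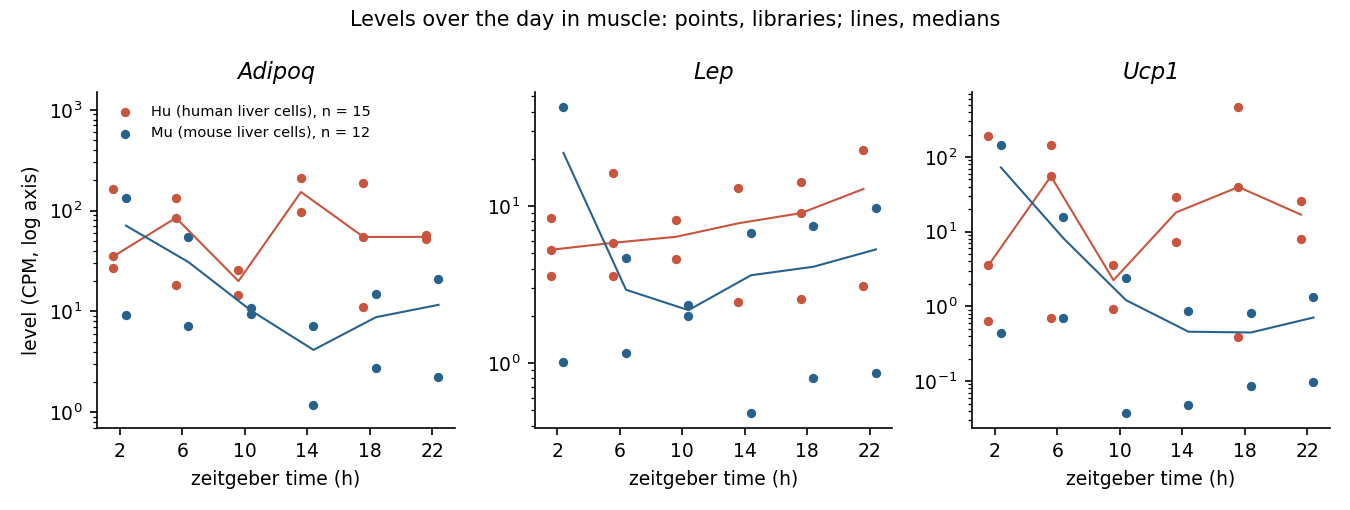
Levels of Adipoq, Lep and Ucp1 by zeitgeber time in muscle, in CPM on a log axis, where points are libraries (red Hu, blue Mu, shifted sideways for clarity) and lines join the medians of each time. The high Mu library at ZT 2 (132.6 CPM for Adipoq, 42.6 for Lep and 144.2 for Ucp1) is the highest of its arm, and libraries of 1 time lie far apart in both arms.

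Other genes of fat cells were read from lists that were also drawn up with results of these data known. Of 12 regulators and other fat cell proteins, 8 were higher in Hu, none was lower and 4 did not pass (adjusted p under 0.05, edgeR), where 13.5% of all genes were higher and 13.3% lower. The median log2 difference was 1.54. Pparg, the nuclear receptor that drives fat cell formation, had a log2 difference of 1.07 ± 0.38, and Cebpa, its partner transcription factor, 1.58 ± 0.50. Pck1, which makes glycerol for triglyceride in fat cells, had 3.62 ± 0.80, and 6 of 15 Hu values exceeded the highest Mu value. Mest, a protein linked to the growth of fat cells, had 1.83 ± 0.31, with Hu values of 3.61 to 34.7 CPM and Mu values of 2.74 to 10.5 CPM. Adig, Thrsp, Sncg and Npr3 were the 4 that did not pass. With Mu ZT 2 replicate 2 left out, 10 of 12 were higher, where 16.4% of all genes were, and the median was 2.08.

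Of 16 genes of fat storage and breakdown, 5 were higher (Lipe, Plin4, Dgat1, Bscl2 and Srebf1), 1 was lower and 10 did not pass, where 13.5% of all genes were higher and 13.3% lower. The median was 0.58. Lipe, the hormone-sensitive lipase, had a log2 difference of 1.11 ± 0.41. Gpam, which starts glycerolipid synthesis, was the gene that was lower, at -0.57 ± 0.10, with medians of 122.3 CPM in Hu and 174.2 CPM in Mu. Scd1 and Fasn, which make fatty acids and are also made outside fat cells, had medians of 1873 and 575.7 CPM in Hu and 541.6 and 176.5 CPM in Mu, and did not pass (1.62 ± 0.64 and 1.72 ± 0.70). Both had their highest level of all 27 libraries in Mu ZT 2 replicate 2, and without it 9 of the 16 were higher and 1 lower, where 16.4% and 14.6% of all genes were.

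Of 8 further brown fat genes, 2 were higher, 1 was lower and 5 did not pass, where 13.5% of all genes were higher and 13.3% lower. Elovl3, an enzyme that elongates fatty acids, had a log2 difference of 3.69 ± 1.08, and Kcnk3, a potassium channel, 1.98 ± 0.64. Dio2, which activates thyroid hormone and is also made by muscle, was lower at -1.04 ± 0.21, with medians of 2.45 CPM in Hu and 3.96 CPM in Mu. Prdm16 and Ebf2, transcription factors of brown fat cells, had 0.17 ± 0.13 and 0.19 ± 0.11, and Zic1 -0.37 ± 0.26. Adrb3 and Otop1 had larger positive differences, 1.68 ± 0.69 and 1.63 ± 0.66, and did not pass either (adjusted p = 0.0723 and 0.0708, edgeR). When Mu ZT 2 replicate 2 was left out, 4 of 8 were higher and 1 lower, where 16.4% and 14.6% of all genes were.

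Of 12 genes that carry leptin and adiponectin signals, 1 was higher, 1 was lower and 10 did not pass, with a median of 0.00. These counts lie near the 13.5% higher and 13.3% lower of all genes. Leaving out Mu ZT 2 replicate 2 gave 2 higher and 1 lower, where 16.4% and 14.6% of all genes were. The gene that was higher was Lepr, the leptin receptor. Its level was 10.0 to 38.6 CPM in Hu (median 16.4) and 5.02 to 10.1 CPM in Mu (median 8.69). The arms barely overlapped, since 13 of 15 Hu values exceeded the highest Mu value, and the log2 difference was 1.05 ± 0.17 (adjusted p = 0.00019, edgeR). Cdh13, a cadherin that binds adiponectin, was lower at -0.26 ± 0.08. The adiponectin receptors Adipor1 and Adipor2 had 0.09 ± 0.05 and 0.27 ± 0.11 and did not pass (adjusted p = 0.237 and 0.0672, edgeR), nor did Socs3, an inhibitor that leptin induces, at 0.46 ± 0.28.

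The arcuate nucleus (ARC), where leptin acts through Lepr, was measured in the same study in 10 Hu and 12 Mu libraries, which took no part in the choice of the members. None of 8 leptin target genes differed between arms there at an adjusted p under 0.05 (edgeR), where 0.00663% of all genes did. DESeq2 called none of the 8 either, where it called 0.0928% of all genes. At an unadjusted p under 0.05, 1 of 8 differed, where 4.24% of all genes did. This was Cartpt, which restrains feeding, with 64.3 ± 8.8 CPM in Hu and 77.6 ± 14.7 CPM in Mu (SD) and a log2 difference of -0.27 ± 0.10 (adjusted p = 0.941, edgeR).

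Agrp and Npy, which leptin lowers and which promote feeding, had 8.26 ± 1.93 and 26.7 ± 4.6 CPM in Hu and 6.71 ± 6.51 and 21.1 ± 15.7 CPM in Mu (SD, n = 10 and 12). Pomc, which leptin raises, had 33.5 ± 12.9 CPM in Hu and 44.3 ± 26.9 CPM in Mu. The log2 differences were 0.38 ± 0.31 for Agrp, 0.38 ± 0.25 for Npy and -0.35 ± 0.23 for Pomc, and none passed the test. Leaving out 1 library at a time moved them from 0.28 to 0.76 for Agrp and from 0.28 to 0.67 for Npy, lowest without Mu ZT 18 replicate 2 and highest without Mu ZT 18 replicate 1. For Pomc they ran from -0.47 (without Hu ZT 2 replicate 2) to -0.19 (without Mu ZT 6 replicate 1). Lepr (0.04 ± 0.11), Socs3 (-0.04 ± 0.12), Stat3 (0.01 ± 0.04) and Ptpn1 (0.01 ± 0.04) lay within their SE of 0.

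Outside muscle, leptin was at 0 counts in all 22 ARC and all 22 libraries of the suprachiasmatic nucleus (SCN), and at 0 to 3 counts in the 27 livers, read from the mouse rows of a separately deposited table. A count of 0 allows up to 3 counts of such a library, for counting error only. Adipoq was at no more than 8 counts in any of these libraries and Ucp1 at no more than 5. Cfd was at 0 in all 15 Hu livers and at 0 to 21 counts in Mu livers. These counts are not at equal depth, since mouse rows held 7.70 to 87.9 M counts in Hu livers and 97.1 to 118.3 M in Mu livers. Fabp4, Cidec and Cidea were the members detected in every liver, Cidea at a median of 0.569 CPM, and Fabp4 and Cidec with medians of 25.3 and 26.3 CPM of mouse counts in Hu livers and 9.57 and 5.56 CPM in Mu livers. Cidea was detected in every ARC and SCN library, at medians of 6.53 and 5.07 CPM.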

How the data were processed

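The authors deposited raw read counts per Ensembl gene, 1 table for muscle, ARC and SCN and 1 for liver. STAR and the builds GRCm38, mm10, hg38, GRCh38 and hg19 are named in the submitters' processing notes, and the counting program and its strand setting are not given in the sources used here. The kit was directional, per the labels' protocols. Symbols and positions came from GENCODE M21, which matched 20329 of 20415 rows.

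The members and lists were chosen with earlier results of these data known. The rule named 9 symbols, the 10 genes most like Adipoq and the 5 most like Lep and Ucp1. CPM was computed as the gene's counts scaled to a library total of 1000000. Counts were fitted with edgeR 4.0.16 (R 4.3.3) in 1 quasi-likelihood model over all muscle libraries, with TMM factors, the default filter on low counts and a 24 h cosine and sine term in each arm. Level is the difference of the arms' time-averaged means, and rhythm tests the cosine and sine terms. P-values were adjusted by Benjamini-Hochberg over all genes. ARC was fitted alone. Within-arm correlations used log2 CPM with a prior count of 2. DESeq2 1.42.0, other filters and scalings, ZT as a factor, the replicate block and each library left out were alternatives. The scripts were tested on simulated data. No muscle libraries of the same arm and time agreed within sampling noise. Other pairs of libraries were not compared.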

Additional observations from a re-analysis of the deposited data

How the results depend on the processing

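The 35 alternatives left Adipoq, Plin1, Cidec, Retn, Cfd and Ucp1 called higher in Hu. Cidea lost its call in 20 of them, among them no filter on low counts, ZT as a factor and replicate numbers 1 and 2 only, and its difference was 1.94 to 3.42 over all edgeR fits that left out 1 library. The fit without both Mu ZT 2 replicate 2 and Hu ZT 6 replicate 1, and that by DESeq2 without the first, were chosen after seeing the data. Without Mu ZT 2 replicate 2 Lep was 1.28 by edgeR, where it was not called, and 1.29 by DESeq2, where it was, and Fabp4 was called by both (1.15 by edgeR). Fabp4 was also called without Hu ZT 18 replicate 2, at 0.94. Counts over all genes moved more. Rhythm in Mu was called for 754 genes, and for 1491 by DESeq2 and 165 with ZT as a factor. DESeq2 also called rhythm in Mu for 4 members, against 0. Rhythm in Hu was called for 1104 genes, and for 1703 by DESeq2, 440 with ZT as a factor and 1745 by DESeq2 without Mu ZT 2 replicate 2. A different rhythm was called for 10 genes, and for 161 by DESeq2, 157 by DESeq2 without that library, 4 without TMM, 1 with ZT as a factor and 6 with replicate numbers 1 and 2 only. In the ARC 1 gene was called, and 14 by DESeq2. The cause was not tested. Leaving out 1 library at a time gave 3071 to 4411 genes for level (3817 over all libraries), 388 (without Mu ZT 14 replicate 2) to 1110 for rhythm in Mu, 602 (without Hu ZT 22 replicate 2) to 1138 for rhythm in Hu, 0 (without Hu ZT 2 replicate 1, among others) to 19 for a different rhythm, and 1 to 2 in the ARC (2 without Mu ZT 6 or ZT 10 replicate 2). ARC differences near 0 changed sign: Lepr ranged from -0.0069 to 0.15, Ptpn1 from -0.0049 to 0.029, Socs3 from -0.093 to 0.020 and Stat3 from -0.0080 to 0.023.

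Replicate numbers were not taken to pair the muscle libraries: deviations of same-numbered libraries correlated at 0.025 on average (-0.15 to 0.46), with 2 of 12 pairs over 0.1, and in the ARC at 0.13, with 6 of 8. Where both arms held 2 libraries at a time, replicates 1 and 2 gave the same value by construction. These counts therefore hold repeated values, in the ARC at every time counted. With the replicate block, 3565 genes were called for level, 683 for rhythm in Mu, 770 for rhythm in Hu and 10 for a different rhythm, 6 of the 9 members were called for level (not Cidea, at 1.94) and none for rhythm, 1 gene was called in the ARC, and Stat3 there was -0.00035. The low counts of Ucp1 in Mu, 3 in each of 2 libraries, limit its fitted difference.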
